A study of Mus musculus with 26 samples.

Results

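The 10 genes described here encode transcription factors and cofactors of effector and terminal differentiation in CD8+ T cells: Tbx21, Eomes, Id2, Prdm1, Zeb2, Bhlhe40, Irf4, Irf8, Runx3 and Hopx. They were chosen by name, with earlier results of these data known, out of 35944 genes with a matched transcript. All 10 passed the filter on low counts that 14616 genes passed. The cells were TCRTg101, which are CD8+ T cells whose transgenic T cell receptor recognises the murine acute leukemia line C1498. They came from transgenic Tg101 mice, which the study crossed onto a Rag2-/- background, although the labels give a wild type genotype. For the leukemia groups, cells labelled with CellTrace Violet (CTV, a dye diluted at each division) were transferred into mice that received C1498 intravenously a day later. The control cells were naive at day 0 or came from untreated mice. Cells were sorted by flow cytometry and sequenced, all but 1 library by low-input RNA-seq.

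The labels give C57BL/6 mice, an age of 6 weeks and a wild type genotype for every sample. The control group held 3 libraries from spleen, of which replicates 1 and 2 were naive TCRTg101 at day 0 and replicate 3 came from untreated mice at day 18. Leukemia-bearing mice gave 2 early (day 7), 3 mid (days 13, 13 and 14) and 2 late (days 18 and 16) liver libraries, 2 early (day 7) and 1 mid (day 14) spleen libraries, and 1 library of undivided (CTVhi) cells labelled spleen at day 18. A further day 0 library, made by oligo-dT priming, entered no test. All control libraries were from spleen, so liver and leukemia cannot be told apart in a comparison of liver with control. The labels name no mouse for a library, so p-values measure the spread between these samples, which may be technical.

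T-bet (encoded by Tbx21) and Eomesodermin (Eomes) are T-box activators of cytotoxic genes, and the balance between them shifts as CD8+ T cells pass from effector to memory or exhausted states. Irf4 is induced by T cell receptor (TCR) signalling and acts with Batf, whereas Blimp-1 (Prdm1), Zeb2 and Bhlhe40 are largely repressors that act later in effector cells. Id2 restrains E proteins, Runx3 sets the CD8 lineage program, Irf8 supports effector differentiation in T cells and dendritic cell identity elsewhere, and Hopx is a homeodomain-only cofactor of effector memory cells.

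Levels are CPM, estimated counts scaled to library size with TMM factors, unless TPM is named. TPM, a share of transcripts that corrects for length, is used to compare one gene with another. Each low-input library held 22918996 to 71358287 estimated counts. T cell markers (Cd3e, Cd3d, Cd8a, Cd8b1 and Trac) summed to 3144 to 7070 CPM in every library. Among B cell markers, Ighm gave 340.9 to 782.7 CPM and Cd79b 10.99 to 43.5 CPM, while Cd79a did not exceed 2.29 CPM and Ms4a1 did not exceed 6.14 CPM in any library. The 3 NK cell markers summed to 0.617 to 9.13 CPM. Some libraries stood apart from others of their group. The day 0 controls carried 102 to 464 CPM of 6 myeloid markers and 2450 to 9859 CPM of 2 globin genes, against 9.93 and 62.7 CPM in the day 18 control. Early liver replicate 1 exceeded replicate 2 by ratios of 2.29 to 29.8 in 8 of the 10 genes. Early spleen replicate 2 had counts in 30009 genes, against 18748 to 25519 in the other libraries. Hepatocyte markers (Alb, Apoa1, Ttr and Serpina1c) summed to 1.63 to 249.9 CPM in liver libraries and 0.0331 to 1.16 CPM elsewhere. In bulk libraries, fewer cells of a type and less RNA per cell cannot be told apart.

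The genes lie on 10 different chromosomes of GRCm38. The 250 bases before the RefSeq start (GRCm38.p6) are printed for the 4 genes that passed the test in both mid and late liver and had an entry, Tbx21, Prdm1, Irf4 and Hopx, and for both starts of Runx3, whose transcripts differed between library series. RefSeq entries matched 9 of the 10 genes, and Bhlhe40 was not matched. Capitals mark matches, on either strand, to motifs bound by the families of these factors: GGTGTGA (T-box), TGTGGT (Runx), GAAA repeated after a gap of 2 bases (the paired site of interferon regulatory factors), CACCTG (an E-box bound by Zeb factors) and CACGTG (the E-box of Bhlhe40). No match printed here overlaps another.
Tbx21 (chr11:97115332-97115581, minus strand): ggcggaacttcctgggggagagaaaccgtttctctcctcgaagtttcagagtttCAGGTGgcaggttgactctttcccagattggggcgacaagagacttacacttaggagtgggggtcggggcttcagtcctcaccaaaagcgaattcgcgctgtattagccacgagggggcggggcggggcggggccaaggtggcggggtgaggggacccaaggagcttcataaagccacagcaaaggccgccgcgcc
Prdm1 (chr10:44458749-44458998, minus strand): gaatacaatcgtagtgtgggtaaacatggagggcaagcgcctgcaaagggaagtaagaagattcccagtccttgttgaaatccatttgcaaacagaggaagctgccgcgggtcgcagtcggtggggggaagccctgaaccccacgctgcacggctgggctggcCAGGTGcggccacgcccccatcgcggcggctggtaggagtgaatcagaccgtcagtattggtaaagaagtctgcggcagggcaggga
Irf4 (chr13:30748983-30749232, plus strand): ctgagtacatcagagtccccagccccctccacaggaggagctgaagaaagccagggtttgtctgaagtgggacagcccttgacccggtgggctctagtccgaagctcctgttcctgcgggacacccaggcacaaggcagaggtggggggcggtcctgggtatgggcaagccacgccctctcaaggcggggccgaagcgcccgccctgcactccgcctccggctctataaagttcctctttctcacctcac
Hopx, start in use (chr5:77095268-77095517, minus strand): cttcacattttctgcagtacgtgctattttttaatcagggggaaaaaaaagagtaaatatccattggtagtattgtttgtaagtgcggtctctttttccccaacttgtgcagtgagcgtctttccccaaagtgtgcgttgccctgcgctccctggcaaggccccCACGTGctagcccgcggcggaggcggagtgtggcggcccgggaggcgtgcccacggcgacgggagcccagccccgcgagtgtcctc
Runx3, distal start (chr4:135120395-135120644, plus strand): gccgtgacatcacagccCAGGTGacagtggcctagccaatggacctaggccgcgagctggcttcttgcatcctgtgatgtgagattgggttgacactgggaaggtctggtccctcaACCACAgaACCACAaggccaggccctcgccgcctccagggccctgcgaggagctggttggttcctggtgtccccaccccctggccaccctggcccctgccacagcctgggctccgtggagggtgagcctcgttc
Runx3, proximal start (chr4:135152295-135152544, plus strand): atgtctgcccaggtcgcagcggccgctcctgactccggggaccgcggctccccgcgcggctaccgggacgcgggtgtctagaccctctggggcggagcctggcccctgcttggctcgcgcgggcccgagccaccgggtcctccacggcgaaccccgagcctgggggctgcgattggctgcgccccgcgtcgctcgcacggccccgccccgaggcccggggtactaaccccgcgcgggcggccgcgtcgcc
The Tbx21 and Prdm1 windows each hold 1 CAGGTG, the other strand of CACCTG, and the Hopx window holds 1 CACGTG at 86 to 81 bases before the start. The distal Runx3 window holds 2 ACCACA, the other strand of TGTGGT, and 1 CAGGTG, whereas the proximal Runx3 window and the Irf4 window hold none of the 5 motifs. The same motifs occur in 17.2% (CACCTG), 14.0% (TGTGGT), 6.02% (CACGTG), 3.33% (GGTGTGA) and 2.98% (the paired GAAA site) of 32851 RefSeq windows of this length. These matches describe the letters and nothing more.

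In mid liver, Tbx21, Eomes, Prdm1, Bhlhe40, Irf4 and Hopx rose, by 2.69-fold (Hopx) to 58.6-fold (Irf4), and no member fell (edgeR quasi-likelihood test, adjusted p under 0.05). That is 6 of 10 members, where 31.3% of all genes tested were called and 17.3% were called higher. In late liver, Tbx21, Prdm1, Bhlhe40, Irf4 and Hopx rose, by 2.02-fold (Hopx) to 67.7-fold (Bhlhe40), which is 5 of 10 members where 37.5% of all genes were called and 19.8% were called higher. The median log2 fold change of the 10 genes was 2.29 in mid and 2.07 in late liver, against -0.06 and -0.03 over all genes tested. Both comparisons share the control libraries. The members were chosen with earlier results of these data known, so these shares and medians describe the set and do not test it. Id2, Zeb2, Irf8 and Runx3 did not pass the test in either. By level, 7 members lay above every control in mid liver and 1 below, where 42.7% of all genes tested did not overlap between these groups. The same counts held in late liver, where 56.5% of all genes did not overlap.

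Leaving out some single libraries ended the calls of the members and of nearly all genes. In mid liver, edgeR called 0 of 10 members without control replicate 1, control replicate 2, mid liver replicate 1 or mid liver replicate 3. Of all genes, these fits called 1, 1, 0 and 0, although 5 or 6 of 10 members kept an unadjusted p under 0.05. Without control replicate 3 edgeR called 5 members and 2361 genes, and without mid liver replicate 2 it called 4 members and 3157 genes. In late liver without control replicate 1, it called 0 of 10 members and 149 genes, and 5 members kept an unadjusted p under 0.05. Without control replicate 2 or 3, it called 4 and 5 members, and 3399 and 4143 genes. The calls also ended without either late liver replicate, which leaves 1 late library. DESeq2 called 6 members in each comparison on all libraries, where it called 37.3% of all genes in mid and 42.5% in late liver. The fold changes of the 6 genes stayed positive in each of these fits.

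**Figure D1:**
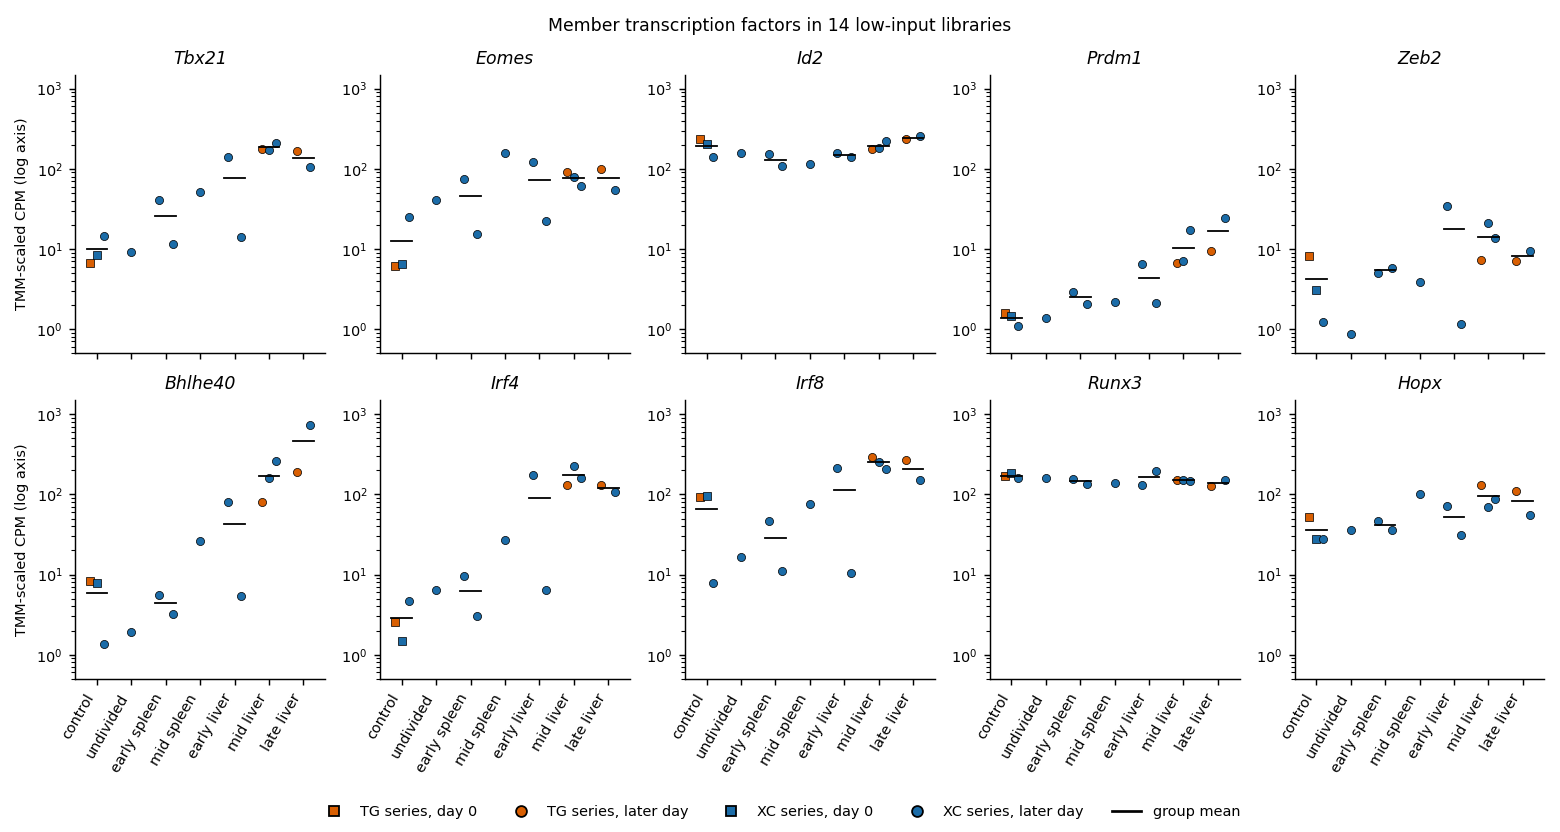
TMM-scaled CPM of the 10 genes on a log axis, 1 point per low-input library, by group. Orange points are the TG series and blue points the XC series (the name in the sample titles), squares are day 0, and bars are group means. Tbx21, Irf4, Bhlhe40 and Prdm1 are higher in every mid and late liver library than in every control library, while Runx3 and Id2 stay within narrow ranges.

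**Figure D2:**
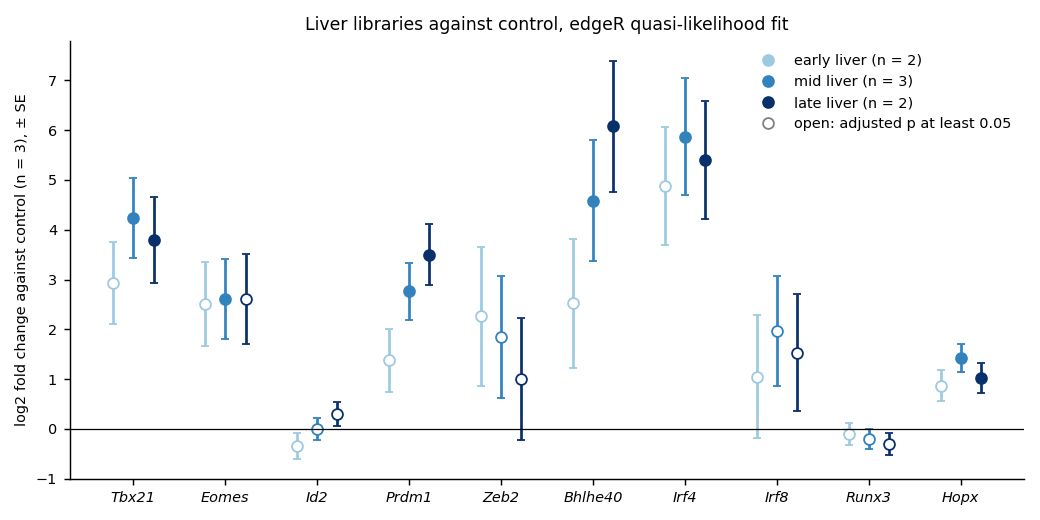
Log2 fold change of each gene against the 3 control libraries in early (n = 2), mid (n = 3) and late (n = 2) liver, with the standard error from the edgeR fit. Filled points have an adjusted p under 0.05. Irf4 and Bhlhe40 have the highest mid and late values, and every early liver point is open.

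Of the T-box factors, Tbx21 (ENSMUSG00000001444.2, chr11:97098071-97115331, minus strand) measured 6.72, 8.32 and 14.6 CPM in the controls, 178.0, 171.0 and 211.8 CPM in mid liver and 166.4 and 103.8 CPM in late liver. The liver libraries of both times lay above every control, with no overlap. The log2 fold change was 4.24 ± 0.81 (SE, adjusted p = 0.022, edgeR) in mid and 3.79 ± 0.86 (adjusted p = 0.0173) in late liver. Within the XC series alone, the value was 4.03 and 3.17, without a call. Late and mid liver did not differ by the test (log2 fold change -0.44 ± 0.82, adjusted p = 0.975).

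Eomes (ENSMUSG00000032446.14, chr9:118478212-118486132, plus strand) measured 6.16, 6.47 and 25.1 CPM in the controls, of which the day 18 library was the highest. Mid liver gave 91.9, 78.6 and 61.7 CPM and late liver 100.3 and 54.1 CPM. All 5 lay above the controls, the lowest at 54.1 CPM against 25.1 CPM in the day 18 control. Its log2 fold change was 2.61 in both, with SE 0.81 in mid (adjusted p = 0.0454, edgeR) and 0.90 in late liver (adjusted p = 0.0544), so that Eomes passed in mid and missed in late liver. Without the series term it missed in mid (adjusted p = 0.0522, edgeR) and passed in late liver (adjusted p = 0.0449). Against the day 0 controls alone it was 3.63 (adjusted p = 0.0406) and 3.52 (adjusted p = 0.0281), and against the day 18 control alone 1.37 (adjusted p = 0.419) and 1.21 (adjusted p = 0.462).

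The balance of the T-box pair differed between libraries. Eomes CPM over Tbx21 CPM was 0.291 to 0.516 in mid liver and 0.521 and 0.603 in late liver, so that Tbx21 was the more abundant in all 5. The ratio was 0.777 and 0.915 in the day 0 controls and 1.71 in the day 18 control. It was 1.36 and 1.86 in early spleen, 3.01 in mid spleen and 4.49 in undivided cells, where Eomes was the more abundant. In early liver it was 0.874 in replicate 1 and 1.57 in replicate 2. On the TPM scale the order of these groups was alike, with 0.227 to 0.462 in the mid and late liver libraries, 2.36 in mid spleen and 3.42 in undivided cells. The ratio was chosen after its values had been seen and was not tested. Mga, another T-box gene, fell in late liver (log2 fold change -1.06 ± 0.21, adjusted p = 0.0121) and gave -0.44 in mid liver (adjusted p = 0.0896).

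**Figure D3:**
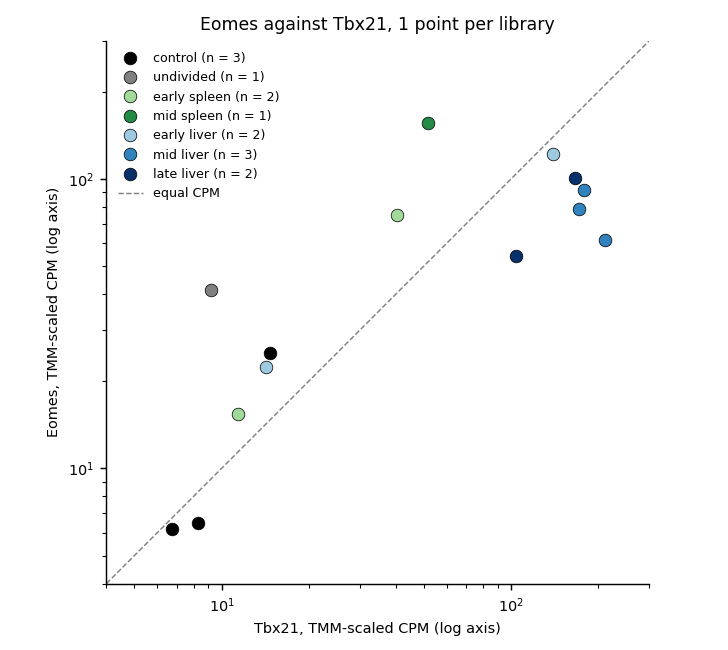
Eomes against Tbx21, both as TMM-scaled CPM on log axes, 1 point per low-input library, with the dashed line at equal CPM. The 5 mid and late liver libraries lie below the line, and the spleen libraries of leukemia-bearing mice and the undivided library lie above it.

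Of the interferon regulatory factors, Irf4 (ENSMUSG00000021356.10, chr13:30749226-30766976, plus strand) measured 2.53, 1.47 and 4.74 CPM in the controls. It measured 130.4, 225.4 and 161.5 CPM in mid liver and 131.1 and 107.1 CPM in late liver. Each lies above the highest control. The log2 fold change was 5.87 ± 1.17 (adjusted p = 0.022, edgeR) in mid and 5.40 ± 1.19 (adjusted p = 0.0164) in late liver, and 5.94 and 5.11 within the XC series. In mid spleen it measured 27.1 CPM and in undivided cells 6.36 CPM.

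Batf, the AP-1 partner of Irf4, rose in both comparisons, by log2 fold changes of 0.75 ± 0.19 (adjusted p = 0.0242) and 0.99 ± 0.21 (adjusted p = 0.013). Among the other factors of the family, Irf1 fell in mid (-1.23 ± 0.30, adjusted p = 0.0239) and late liver (-1.59 ± 0.35, adjusted p = 0.0145). Irf7 (-1.34, adjusted p = 0.0221) and Irf9 (-0.89, adjusted p = 0.0477), which carry interferon responses, fell in late liver, and in mid liver had log2 fold changes of -0.89 and -0.64 that missed the threshold. Irf2, Irf3 and Irf5 did not pass in either.

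Irf8 (ENSMUSG00000041515.10, chr8:120736358-120756694, plus strand) split the controls. The day 0 libraries measured 93.8 and 96.2 CPM and the day 18 library 7.95 CPM, while mid liver gave 289.5, 254.7 and 210.2 CPM and late liver 270.4 and 149.7 CPM. Every liver library of both times lay above every control. The log2 fold change was 1.97 ± 1.102 (adjusted p = 0.195, edgeR) in mid and 1.53 ± 1.18 (adjusted p = 0.324) in late liver, and was not called. Against the day 18 control alone it was 4.75 (adjusted p = 0.304) and 4.34 (adjusted p = 0.225), also without a call.

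Some markers of other cell types were, like Irf8, higher in both day 0 controls than in the day 18 control. The B cell marker Cd79b was not, at 30.6 and 16.3 CPM against 23.05 CPM. Clec9a, a marker of the dendritic cells that depend on Irf8, measured 4.43 and 5.51 CPM in the day 0 controls and 0.0649 CPM in the day 18 control. Xcr1 measured 13.3 and 14.7 CPM against 3.83, and Csf1r, a macrophage receptor, 184.9 and 31.5 CPM against 3.64. In the mid and late liver libraries, Clec9a measured 0 to 0.0726 CPM, Siglech 0.0521 to 0.131 CPM and Flt3 0.521 to 1.33 CPM. The 5 dendritic cell markers summed to 6.66 to 49.2 CPM in the controls, 16.3 to 31.4 CPM in mid liver and 6.18 to 10.1 CPM in late liver, and Itgax made up 11.1 to 28.7 CPM of the mid liver sums. The 6 myeloid markers summed to 9.93 to 464 CPM in the controls, 11.9 to 41.6 CPM in mid liver and 24.1 to 50.0 CPM in late liver. Their part in the control values of Irf8 was not tested.

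**Figure D4:**
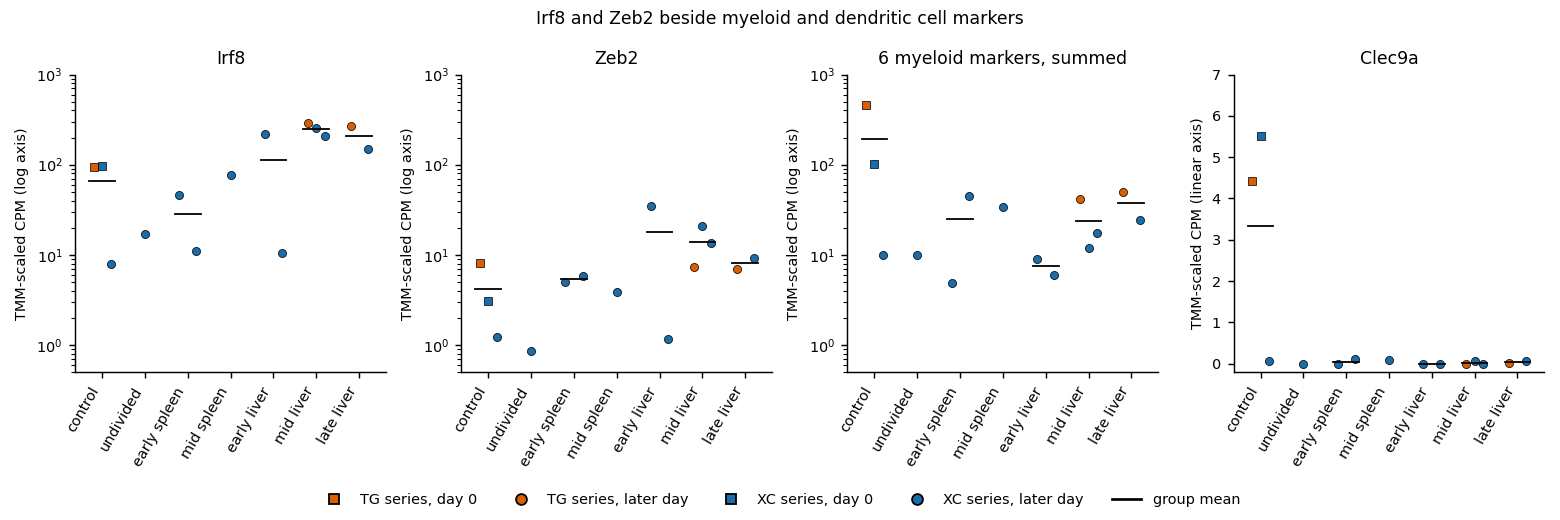
TMM-scaled CPM of Irf8, Zeb2, the sum of 6 myeloid markers (log axes) and Clec9a (linear axis) in the 14 low-input libraries, coloured by series. The 2 day 0 controls (squares) are high for Clec9a and the myeloid sum and lie well above the day 18 control for Irf8. The mid and late liver libraries have Irf8 at 149.7 to 289.5 CPM with Clec9a near 0.

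Of the 3 repressors, Bhlhe40 (ENSMUSG00000030103.11, chr6:108660629-108666925, plus strand), a basic helix-loop-helix repressor, measured 8.42, 7.81 and 1.36 CPM in the controls. It measured 79.8, 159.4 and 263.8 CPM in mid liver and 190.4 and 731.4 CPM in late liver. No liver library of these times overlapped the controls, and late liver replicate 2 had the highest value of any member in any library. Its log2 fold change was 4.59 ± 1.22 (adjusted p = 0.0312, edgeR) in mid and 6.08 ± 1.32 (adjusted p = 0.016) in late liver, and 5.48 and 7.29 within the XC series. Late against mid liver gave 1.49 ± 1.12 (adjusted p = 0.936), with overlapping values. Its paralogue Bhlhe41 measured 173.0 to 350.7 CPM in the 3 TG libraries and 8.43 to 21.0 CPM in the 11 XC libraries, and did not pass the test in mid (-0.26, adjusted p = 0.58) or late liver (0.08, adjusted p = 0.88).

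Prdm1 (ENSMUSG00000038151.13, chr10:44437177-44528501, minus strand), which encodes Blimp-1, had the lowest mean TPM of the members in the controls, at 0.307 to 0.454 TPM, a range within that of Irf4. Its CPM was 1.60, 1.47 and 1.104 in the controls, 6.61, 7.07 and 17.4 in mid liver and 9.33 and 24.1 in late liver. The liver libraries lay above every control. It rose by a log2 fold change of 2.76 ± 0.57 (adjusted p = 0.022, edgeR) in mid and 3.49 ± 0.61 (adjusted p = 0.0102) in late liver, and by 3.21 and 4.21 within the XC series without a call. The Blimp-1 homologue Hobit (Zfp683) measured 0.694 to 3.32 CPM in these liver libraries and 0.914 to 2.50 CPM in the controls, without a call.

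Zeb2 (ENSMUSG00000026872.17, chr2:44983632-45117395, minus strand), a repressor that acts in terminal effector cells, measured 8.16, 3.09 and 1.23 CPM in the controls. It measured 7.26, 21.0 and 13.7 CPM in mid liver and 7.02 and 9.30 CPM in late liver. The groups overlapped through control replicate 1, the library with the highest myeloid sum. Zeb2 gave a log2 fold change of 1.85 ± 1.22 (adjusted p = 0.263, edgeR) in mid and 1.0 ± 1.23 (adjusted p = 0.535) in late liver. Against the day 18 control alone it was 3.65 (adjusted p = 0.345) and 3.12 (adjusted p = 0.353), and the part of the myeloid markers in its control values was not tested. Zeb1, its paralogue, fell in mid (-1.41 ± 0.29, adjusted p = 0.022) and late liver (-1.43 ± 0.34, adjusted p = 0.0162), from a control mean of 74.2 CPM to 29.1 and 28.3 CPM.

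The remaining members are Id2, Runx3 and Hopx. Id2 (ENSMUSG00000020644.9, chr12:25093799-25097140, minus strand) was the most abundant member per length in the controls at 129.3 to 168.2 TPM. It measured 236.8, 203.9 and 140.4 CPM in the controls, 178.5, 182.8 and 222.7 CPM in mid liver and 235.0 and 254.5 CPM in late liver. The groups overlapped, and the log2 fold change was -0.003 ± 0.218 (adjusted p = 0.992, edgeR) in mid and 0.31 ± 0.24 (adjusted p = 0.324) in late liver. The mid value took either sign between settings. The related inhibitor Id3 measured 209.5 to 373.8 CPM in mid liver and 483.9 and 106.7 CPM in late liver, against 60.8 to 139.8 CPM in the controls, and missed the threshold (1.39, adjusted p = 0.0599, and 1.21, adjusted p = 0.126). Among the E proteins that Id2 binds, Tcf4 fell in mid liver (-0.92 ± 0.31, adjusted p = 0.049) and Tcf12 in late liver (-0.81 ± 0.21, adjusted p = 0.0207), and Tcf3 passed in neither.

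Runx3 (ENSMUSG00000070691.10, chr4:135120652-135177990, plus strand) measured 167.6, 185.7 and 158.7 CPM in the controls, 152.7, 151.7 and 145.8 CPM in mid liver and 126.2 and 153.2 CPM in late liver. The liver values lay under every control, furthest in late liver replicate 1 (126.2 CPM against a lowest control of 158.7 CPM). The log2 fold change was -0.20 ± 0.19 (adjusted p = 0.429, edgeR) in mid and -0.30 ± 0.22 (adjusted p = 0.288) in late liver. Over all 14 low-input libraries it ranged from 126.2 to 196.4 CPM. The family moved apart: Runx2 rose in mid (2.47 ± 0.52, adjusted p = 0.022) and late liver (2.63 ± 0.55, adjusted p = 0.014), from 3.86 to 5.90 CPM in the controls to 21.98 to 36.6 CPM. Runx1 fell in late liver (-1.11 ± 0.24, adjusted p = 0.0139), and the shared cofactor Cbfb rose in both (0.57, adjusted p = 0.0346, and 0.65, adjusted p = 0.0268).

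Runx3 transcripts from the distal start carried most of the estimated level. Runx3-201 gave 17.2 to 54.0 TPM over the 14 libraries, and Runx3-202, from the proximal start, 10.2 to 21.9 TPM in the 11 XC libraries and 0.0447 to 0.129 TPM in the 3 TG libraries. The distal transcript made up 63.6% to 75.7% of Runx3 TPM in the XC series and 97.4% to 98.3% in the TG series, in controls and liver alike. The proximal window printed above has 78.8% G and C and the distal window 65.2%, against 53.2% over all RefSeq windows. Estimates of transcripts that share exons carry an error that these values do not show.

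**Figure D5:**
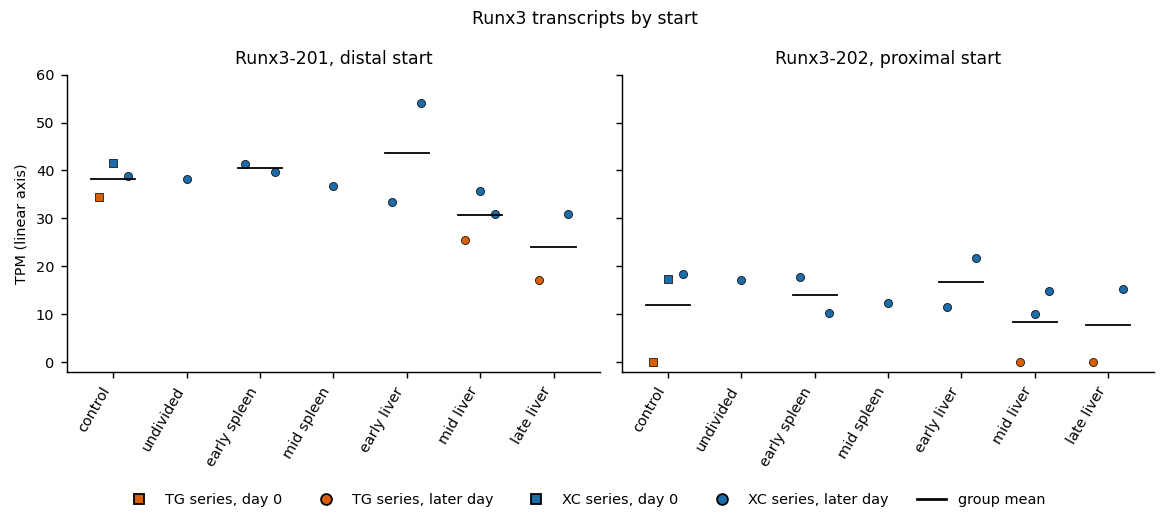
TPM (linear axis) of the Runx3 transcripts from the distal start (Runx3-201) and the proximal start (Runx3-202) in the 14 low-input libraries. Orange points (TG series) lie at 17.2 to 34.6 TPM for the distal and near 0 for the proximal transcript, and blue points (XC series) at 10.2 to 21.9 TPM for the proximal transcript.

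Hopx (ENSMUSG00000059325.14, chr5:77086988-77115121, minus strand) measured 52.7, 28.0 and 27.7 CPM in the controls, 132.6, 70.3 and 87.7 CPM in mid liver and 109.0 and 56.0 CPM in late liver. The highest control was the TG library, and late liver replicate 2 lay only just above it. The log2 fold change, with series in the model, was 1.43 ± 0.28 (adjusted p = 0.022, edgeR) in mid and 1.01 ± 0.30 (adjusted p = 0.031) in late liver, and 1.47 and 0.997 within the XC series. Without the series term Hopx missed the threshold in both (adjusted p = 0.0699 and 0.105, edgeR). Its transcripts came from the start whose window is printed above, since Hopx-202 and Hopx-203 gave 17.8 to 86.6 and 3.24 to 11.8 TPM and the upstream Hopx-201 at most 0.44 TPM.

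In early liver, at day 7, edgeR called 0 of 10 members against control, where 0.0% of all genes were called, while 4 members had an unadjusted p under 0.05 and DESeq2 called 3 (Tbx21, Eomes and Irf4) and 2.4% of all genes. By level, 2 members did not overlap the controls, where 20.3% of all genes did not. The 2 libraries disagreed. Irf4 measured 172.4 CPM in replicate 1 and 6.43 CPM in replicate 2, Irf8 216.1 and 10.6 CPM, and Zeb2 34.5 and 1.16 CPM, which are ratios of 26.8, 20.4 and 29.8. Tbx21 (139.2 and 14.3 CPM), Bhlhe40 (81.2 and 5.45 CPM), Eomes (121.7 and 22.3 CPM), Prdm1 (6.52 and 2.13 CPM) and Hopx (71.9 and 31.4 CPM) followed the same order. Id2 and Runx3 differed by ratios of 1.12 and 0.661.

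A fit with 1 early liver library assumes that it varies like the other groups. With replicate 1 alone, the log2 fold change against control was 5.83 for Irf4 (adjusted p = 0.00134, edgeR), 3.79 for Tbx21 (adjusted p = 0.00113) and 1.34 for Hopx (adjusted p = 0.00293), where 13.2% of all genes were called. With replicate 2 alone the values were 1.095, 0.51 and 0.15 and no member was called. In replicate 1, Zeb2 (34.5 CPM) was higher than in any other library and Bhlhe40 (81.2 CPM) was near the lowest mid liver library. Mid against early liver, with both early libraries, gave 0 of 10 calls by edgeR, 0 at an unadjusted p under 0.05, and 0 by DESeq2. Of 14616 genes tested, edgeR called 0.0%, 2419 had an unadjusted p under 0.05 and DESeq2 called 464. By level, 3 members did not overlap, where 34.1% of all genes did not. Against replicate 2 alone, edgeR called Tbx21 (3.73, adjusted p = 0.00625), Prdm1 (2.40, adjusted p = 0.0481), Irf4 (4.79, adjusted p = 0.0104) and Hopx (1.27, adjusted p = 0.00827), where 18.1% of all genes were called.

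Between late and mid liver, 0 of the 10 genes were called by edgeR, 0 had an unadjusted p under 0.05 and DESeq2 called 0. Of all 14616 genes tested, edgeR called 0.0%, 783 had an unadjusted p under 0.05 and DESeq2 called 32. Log2 fold changes ran from -0.85 ± 1.27 (Zeb2) to 1.49 ± 1.12 (Bhlhe40). Tbx21 was lower and Id2 higher in both late libraries than in every mid library, and the other 8 genes overlapped, where 14.7% of all genes tested did not overlap. Prdm1 (0.73 ± 0.58), Irf4 (-0.47 ± 1.09) and Hopx (-0.42 ± 0.31) did not differ beyond the spread.

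The undivided (CTVhi) library from leukemia-bearing mice measured 9.21 CPM of Tbx21, 1.36 CPM of Prdm1, 1.92 CPM of Bhlhe40, 0.862 CPM of Zeb2, 16.8 CPM of Irf8 and 36.3 CPM of Hopx. These values lay within the range of the controls, apart from Zeb2, which was below it. Irf4 (6.36 CPM) and Eomes (41.4 CPM) lay above all 3 controls. That is 3 members outside the control range, where 39.5% of all genes were outside it. Neither edgeR nor DESeq2 called a member here, and neither called any other gene. A group of 1 library was assumed to vary like the other groups, so the lack of calls is not particular to the members.

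Late liver against undivided cells gave log2 fold changes of 8.05 ± 2.38 for Bhlhe40, 4.34 ± 1.84 for Irf4, 3.93 ± 1.36 for Tbx21 and 3.79 ± 0.99 for Prdm1. Eomes differed by 0.89 ± 1.25. The undivided library was labelled spleen and the late libraries liver, so organ and division cannot be told apart in this comparison. Of the 10 genes, 9 were higher and Runx3 was lower in both late libraries, where 79.1% of all genes tested did not overlap. EdgeR called 0 of 10 (4 at an unadjusted p under 0.05, adjusted p = 0.106 or above) and 0.0% of all genes, and DESeq2 called 4, Tbx21, Prdm1, Bhlhe40 and Irf4, and 12.9% of all genes.

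In spleens of leukemia-bearing mice at day 7, Tbx21 measured 40.5 and 11.4 CPM, Eomes 75.1 and 15.4 CPM, and Irf8 46.0 and 10.97 CPM in the 2 libraries, again with replicate 1 higher. Bhlhe40 (5.54 and 3.20 CPM) and Zeb2 (4.98 and 5.85 CPM) stayed within the control range, whereas Irf4 (9.52 and 3.02 CPM) exceeded it in replicate 1. Of the 10 genes, 2 did not overlap the controls, where 18.3% of all genes did not. EdgeR called 0 of 10 against control, where 0.0% of 15465 genes were called, with 0 at an unadjusted p under 0.05 and 0 by DESeq2.

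The single mid spleen library measured 155.5 CPM of Eomes, the highest of the 14 libraries, with 51.7 CPM of Tbx21, 27.1 CPM of Irf4, 26.5 CPM of Bhlhe40 and 101.6 CPM of Hopx. Prdm1 measured 2.14 CPM and Zeb2 3.91 CPM. Against control, Hopx gave a log2 fold change of 1.85 ± 0.36, Eomes 3.63 ± 1.099 and Irf4 3.17 ± 1.31, and these 3 had an unadjusted p under 0.05. EdgeR called 0 of 10 (adjusted p = 0.841 or above, where 0.00647% of all genes were called and 51.3% did not overlap) and DESeq2 called Hopx alone of the members (1.83, adjusted p = 0.034) and 0.0776% of all genes.

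Liver was set beside spleen at matched times. At day 7, Irf4 (3.83 ± 1.32) and Bhlhe40 (3.31 ± 1.35) had the highest log2 differences, both with an unadjusted p under 0.05, and all 10 genes overlapped between the organs, where 25.8% of all genes did not. EdgeR and DESeq2 each called 0 of 10. Of 15465 genes tested, edgeR called 0.0% and DESeq2 called 61. Without early liver replicate 2, which leaves a lone early liver library, Irf4 gave 4.77. At mid times, 8 genes were higher in each liver library than in the spleen library, Eomes was lower (-1.001 ± 1.187) and Hopx overlapped, where 59.6% of all genes did not overlap. Prdm1 (2.41 ± 0.85) was the 1 member with an unadjusted p under 0.05, and edgeR and DESeq2 each called 0 of 10, where 0.00647% of all genes were called by edgeR.

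Lists of genes around the factors were counted in the same fits. They too were chosen with earlier results of these data known, so the counts do not test the lists. Of all genes tested, 17.3% rose and 13.9% fell in mid liver, and 19.8% rose and 17.7% fell in late liver. Of 16 genes of effector function, 11 rose in mid and 13 in late liver and none fell, with median log2 fold changes of 4.26 and 4.57. These included Gzmb (8.33 ± 1.43, adjusted p = 0.022, and 8.92 ± 1.499, adjusted p = 0.011, edgeR), Ifng (6.47, adjusted p = 0.0227, and 6.22, adjusted p = 0.0163) and Prf1 (1.75, adjusted p = 0.022, and 2.17, adjusted p = 0.00998). Il2rb, the IL-2 and IL-15 receptor chain, rose from a control mean of 232.8 CPM to 871.7 CPM in mid (adjusted p = 0.0204) and 929.1 CPM in late liver (adjusted p = 0.00872).

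Receptors of terminal effector cells did not move together. Cx3cr1 rose in late liver (5.34 ± 1.24, adjusted p = 0.0185) and reached 19.1 and 37.9 CPM there. Klrg1 measured 23.4, 3.16 and 0.694 CPM in mid liver and 1.63 and 0.936 CPM in late liver, against 0.130 to 0.884 CPM in the controls, and was not called. S1pr5 measured 0 and 0.0567 CPM in late liver and 0.0974 to 1.09 CPM in the controls, and Klrd1 104.8 to 140.2 CPM in mid and late liver and 134.6 to 152.4 CPM in the controls. Neither passed the test.

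Among genes known to be repressed by Blimp-1 or Zeb2, Ccr7, S1pr1 and Il7r fell in both comparisons. S1pr1, the receptor for egress from tissues, fell from a control mean of 684.2 CPM to 130.7 CPM in mid (adjusted p = 0.023) and 72.3 CPM in late liver (adjusted p = 0.0149). Il2 rose instead, measuring 68.7, 25.2 and 16.8 CPM in mid and 19.9 and 0.596 CPM in late liver, against 0 to 0.0449 CPM in the controls (adjusted p = 0.022 and 0.0262). Tcf7, Bcl6 and Id3 passed in neither.

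Of 10 factors of naive and memory cells, Lef1, Foxo1, Klf2 and Satb1 fell in both. Satb1 went from a control mean of 775.7 CPM to 211.8 CPM in mid (adjusted p = 0.0248) and 93.1 CPM in late liver (adjusted p = 0.0123), and Klf2 from 1172 CPM to 332.9 (adjusted p = 0.03) and 289.8 CPM (adjusted p = 0.0294). Myb rose in late liver (2.74 ± 0.78, adjusted p = 0.0311), and Eomes, which is on this list too, in mid liver. Of 20 paralogues and partners of the members, 19 were tested. In mid liver 3 rose and 3 fell, where 31.3% of all genes tested were called. In late liver 3 rose and 7 fell, where 37.5% of all genes were called. The lists overlap in Eomes, Tcf7, Bcl6 and Id3.

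Patterns over the 14 low-input libraries were compared by Pearson correlation of log2 CPM, as a description across libraries that share groups and series. Tbx21 and Irf4 were the most alike pair of members (r = 0.974), followed by Prdm1 and Bhlhe40 (r = 0.947). Among all genes tested, those most like Irf4 were Il2ra (0.993), Spry1 (0.989) and Crtam (0.986), and those most like Tbx21 were Adora2a (0.983), Gzmk (0.978) and Zbtb32 (0.978). Bhlhe40 was most like Srgap3 (0.99), Arid3a (0.986) and Plxdc2 (0.983), Prdm1 most like Lgalsl (0.967) and Nsmf (0.961), and Hopx most like Cxcr3 (0.954), A630001G21Rik (0.954) and Abcb8 (0.933).

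Per length, the order of the members differed between groups. In the controls the mean TPM ran from Id2 (153.9) through Runx3 (52.1), Irf8 (36.8) and Hopx (29.4) to Eomes (4.40), Tbx21 (4.20), Bhlhe40 (1.91), Zeb2 (1.31), Irf4 (0.787) and Prdm1 (0.382). Most neighbours in this order overlapped over the 3 controls: Id2 lay above Runx3 and Hopx above Eomes, and no other neighbouring pair was separated. In late liver the order was Bhlhe40 (150.3), Id2 (144.7), Irf8 (87.8), Hopx (48.3), Tbx21 (38.4), Runx3 (33.0), Irf4 (17.4), Eomes (16.4), Prdm1 (3.77) and Zeb2 (2.56). Bhlhe40 at 37.2 and 263.3 TPM spanned the values of Id2, Irf8 and Hopx, so its place is not resolved. Id2 lay above Irf8, Irf8 above Hopx, Hopx above Tbx21 and Eomes above Prdm1, while Tbx21 and Runx3, Runx3 and Irf4, Irf4 and Eomes, and Prdm1 and Zeb2 overlapped.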

How the data were processed

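TCRTg101 cells were profiled in 26 runs of 15 libraries, of which 14 were low-input RNA-seq (Illumina HiSeq platform, in a pair of batches, per the study's methods) and 1 was labelled as regular sequencing with oligo-dT. The authors quantified reads with kallisto, and the submitters' processing notes also name bcl2fastq, mm10 and GRCm38, with no versions. For each transcript, the deposited files give the estimated count from kallisto, which need not be whole, and the TPM that the authors deposited, which corrects for length and depth. Transcripts were matched to GENCODE vM21 (GRCm38) by identifier for 116710 of 118783 (98.25%), which covered 99.0% to 99.29% of the counts of a run. That release may not be the one the authors used.

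Gene totals are the sum of a gene's transcripts and of a library's runs, rounded to whole numbers. A second run was taken from the suffix of the sample title. Over 78 pairs of runs with at least 100 counts of a member in each, the larger CPM exceeded the smaller by a median ratio of 1.06 and at most 1.37. The filter asked for 10 or more counts in 6 or more libraries (14616 genes in the fit of 11 libraries, 15465 in the fit of 14 libraries with spleen). Two-sided tests used the robust quasi-likelihood fit of edgeR 4.0.16 (R 4.3.3) with TMM factors, group and series, the latter (TG or XC in the titles) taken as the batch. P-values were adjusted by Benjamini-Hochberg over all genes tested, with a threshold of 0.05. The fits were tested on simulated data. Log2 CPM used a prior count of 2. The depth of 22918996 to 71358287 counts makes counting error small for most members, while 1 to 3 libraries per group limit the precision. Reads carried no stated molecular identifiers, so they are not taken as independent molecules.

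Alternatives were DESeq2 1.42.0 (the tool of the study), RLE factors, no series term, other filters, the groups compared alone, all 14 libraries, day 0 controls, first runs, counts scaled from TPM, and each replicate left out. The day 18 control alone and the XC series alone were added after the data had been seen. The 10 members and all gene lists were chosen with earlier results of these data known. Named genes are the 10 members, genes of the lists with an adjusted p under 0.05, and, for each member called in late liver against control, the 3 tested genes with the highest correlation over the 14 low-input libraries. Other list genes were named after their values were seen. Values of some list genes and of 1 of the most correlated genes are not reported here. Python 3.11.15 with pandas 2.3.3 and matplotlib 3.10.9 made tables and plots.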

Additional observations from a re-analysis of the deposited data

Results flagged for a closer look

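The oligo-dT library of day 0 cells entered no comparison, and 3 members were above all 3 low-input controls in it, as CPM without TMM scaling. Prdm1 measured 2.21 CPM against 1.20 to 1.65 CPM in the low-input controls. Bhlhe40 measured 11.5 CPM against 1.497 to 8.64 CPM. Irf4 measured 8.73 CPM against 1.51 to 5.20 CPM. Myeloid and dendritic cell markers were present in this library too, with Csf1r at 154.5 CPM and Clec9a at 8.36 CPM, and Irf8 measured 57.5 CPM. Tbx21 (4.78 CPM), Id2 (120.4 CPM), Runx3 (135.3 CPM) and Hopx (24.2 CPM) were below all 3 low-input controls, whose lowest values were 6.91, 154.2, 172.1 and 28.9 CPM, and Eomes, Zeb2 and Irf8 were within their range. The part of priming or of other cells was not tested. No group held the 4 libraries needed to test for an outlying sample. No member was called between liver and spleen, or between late and mid liver, by the edgeR test with all libraries. In late against mid liver and in early liver against early spleen, edgeR called 0.0% of all genes tested. In mid liver against the single mid spleen library it called 0.00647%, where 59.6% of all genes did not overlap. The lack of calls is therefore not particular to the members.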

How the results depend on the processing

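No paired analysis was possible because replicate numbers were given in accession order and pair no samples. DESeq2 called 3 members in early liver against control, 4 in late liver against undivided cells and 1 in mid spleen against control, where edgeR called 0 in each. Without the series term, 1388 genes were called in mid and 2699 in late liver against control, where the fit with it called 4568 and 5482, and members called were 4 in mid (without Eomes and Hopx) and 5 in late liver (Eomes in place of Hopx). The cause was not tested. With day 0 controls only, 2361 genes were called in mid liver, and Bhlhe40 missed the threshold in mid (adjusted p = 0.0629, edgeR) and Hopx in late liver (adjusted p = 0.0666). With the day 18 control only, 1 gene and 0 members were called in mid and 0 genes and 0 members in late liver, at 6 and 3 members with an unadjusted p under 0.05. With the XC series only, 0 genes and 0 members were called in both, at 5 and 4 members with an unadjusted p under 0.05. Fewer libraries enter the fits with day 0, day 18 or XC libraries only. The loss of the calls is not a change of direction: fold changes of the members called kept their sign in mid and late liver under every alternative run.

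With no filter on counts, 8 members were called in mid and 7 in late liver, where 5718 and 6283 of 29525 genes were called. Zeb2 and Irf8 were among the members called in mid and Eomes and Irf8 in late liver. In mid liver the SE went from 0.81 to 0.277 for Tbx21, from 0.806 to 0.27 for Eomes and from 0.218 to 0.242 for Id2. The cause was not tested. For Id2 in mid liver against control, -0.003 became 0.023 by DESeq2 and by RLE factors, 0.015 with all 14 libraries, 0.028 with the 2 groups alone, 0.202 with the XC series only and 0.478 with the day 18 control only. Without the series term, Hopx in undivided cells against control gave -0.006 and Zeb2 in mid spleen against control -0.096.

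With each replicate left out, the genes called ranged from 0 to 3157 in mid and 0 to 4143 in late liver against control. Members called ranged from 0 to 5 in mid and in late liver, 0 to 3 in early liver against control, 0 to 1 in early liver against early spleen and 0 to 4 in mid against early liver. In early liver against control, log2 fold changes ranged from -0.488 to 3.401 (Bhlhe40), -2.366 to 2.363 (Irf8), -0.432 to 0.172 (Runx3) and -1.682 to 3.195 (Zeb2). In early liver against early spleen they ranged from -1.025 to 2.217 (Eomes), -0.400 to 0.794 (Hopx), -0.011 to 0.469 (Id2), -1.433 to 3.363 (Irf8), -0.232 to 1.380 (Prdm1), -0.175 to 0.422 (Runx3), -0.869 to 2.750 (Tbx21) and -2.225 to 2.667 (Zeb2). In mid against early liver they ranged from -0.665 to 1.781 (Eomes), -0.017 to 4.331 (Irf8), -0.379 to 0.221 (Runx3) and -1.370 to 3.519 (Zeb2). In late against mid liver they ranged from -0.675 to 0.583 (Eomes), -0.252 to 0.036 (Runx3) and -0.990 to 0.099 (Tbx21). For Id2 in mid liver against control the range was -0.215 to 0.205. In undivided cells against control it was -0.619 to 0.066 (Prdm1) and -0.327 to 0.315 (Tbx21). In early spleen against control it was -2.308 to 0.387 (Irf8) and -0.192 to 1.321 (Zeb2), and in mid spleen against control -0.144 to 1.806 (Irf8) and -0.665 to 0.845 (Zeb2). None of these members was called with all libraries in the comparison for which its range is given here.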
